A study of Homo sapiens with 3 samples.

Results

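PTPRN2 lies close to the long-arm end of chromosome 7, and 65 of the 54116 H3K9me3 regions listed for the study were annotated to it. The regions were chosen as all rows on chromosome 7 whose gene annotation holds PTPRN2, and there were 34 in the CXCL12 library and 31 in the control library. The cells were Jurkat, an established human line grown from an acute T cell leukaemia, kept without serum for 90 min in both groups. The treated cells then received CXCL12, a chemokine, at 100 ng/ml over 15 min, while control cells received none. For both, chromatin fixed with 1% formaldehyde was precipitated with an antibody to trimethylated lysine 9 of histone H3, with 30 µg of chromatin per precipitation. Each group had 1 library, so no difference here has a replicate check and no p-value is given. An input library was not analysed here.

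PTPRN2 encodes a transmembrane protein of the receptor-type tyrosine phosphatase family, also called phogrin or IA-2 beta. It sits in the membrane of dense-core secretory vesicles of neurons and endocrine cells, where it takes part in the storage and release of hormones, and it is an autoantigen in type 1 diabetes. H3K9me3 is laid down by methyltransferases such as SUV39H1 and SETDB1, is bound by HP1 proteins, and marks repeats, silenced gene clusters and other compacted chromatin. Expression was not measured in these files, so neither the gene's activity nor the T cell identity of the culture could be read from them directly.

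The gene was picked for its number of regions, so that number is a description. With 65 regions over both libraries it stood level with GPHN, behind 3 other genes and just ahead of ISPD with 63, among 7664 annotated symbols with a median of 2. Gene length was not taken into account in this ranking. The deposited distances place the start of PTPRN2 at 158380482 of chromosome 7 in hg19, and the gene runs from there towards the centromere. Its regions were spread over 1066.6 kb, from 157323200 to 158389799. Of the regions, 32 in CXCL12 and 30 in control were placed inside the gene, and the deposited annotation does not say whether in an exon or an intron. The region length here counts both end positions, and the signal is the authors' value per bin, either averaged across a region or taken at its highest bin. The depth and any scaling of the libraries are unknown, and signals are given without a counting interval.

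H3K9me3 at PTPRN2 was concentrated in the part of the gene between 204.9 and 523.4 kb from its start, in both libraries. The span of distances was divided into 10 equal parts of 106.2 kb, numbered from the gene start. Of part 3, 60.8% lay under regions in CXCL12 and 62.9% in control. In part 4 it was 55.6% in CXCL12 and 50.7% in control, and in part 5 it was 68.3% in CXCL12 and 66.6% in control. The parts on either side were less covered, with 21.3% in CXCL12 and 19.6% in control in part 2 and 26.5% in CXCL12 and 28.9% in control in part 6. Beyond it coverage was at most 12% in CXCL12 and 14.5% in control. Parts 1 to 5 held 23 regions in CXCL12 and 22 in control, against 11 in CXCL12 and 9 in control in parts 6 to 10. Regions of parts 1 to 5 covered 240.0 kb in CXCL12 and 228.8 kb in control, while those of parts 6 to 10 covered 66.4 kb in CXCL12 and 65.4 kb in control.

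**Figure D1:**
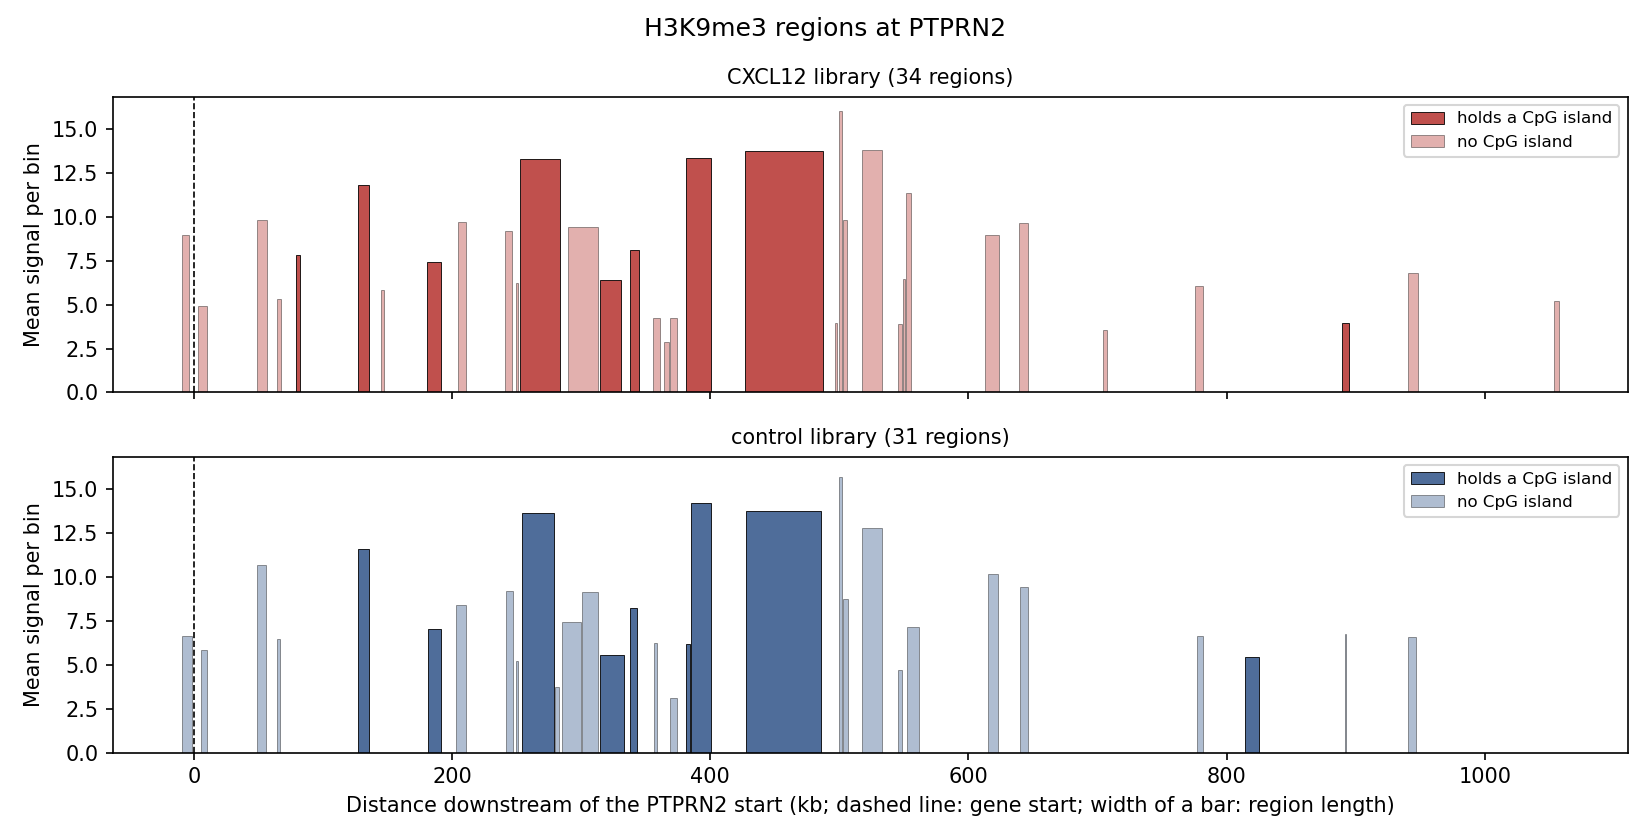
Regions at PTPRN2 by distance from the gene start in kb (x axis), with mean signal per bin (y axis), in the CXCL12 library above and the control library below. The width of a bar is the region's length and dark bars hold a CpG island. The widest bar, 60.2 kb in CXCL12 and 58.6 kb in control, has a mean signal of 13.7 in CXCL12 and 13.8 in control.

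**Figure D2:**
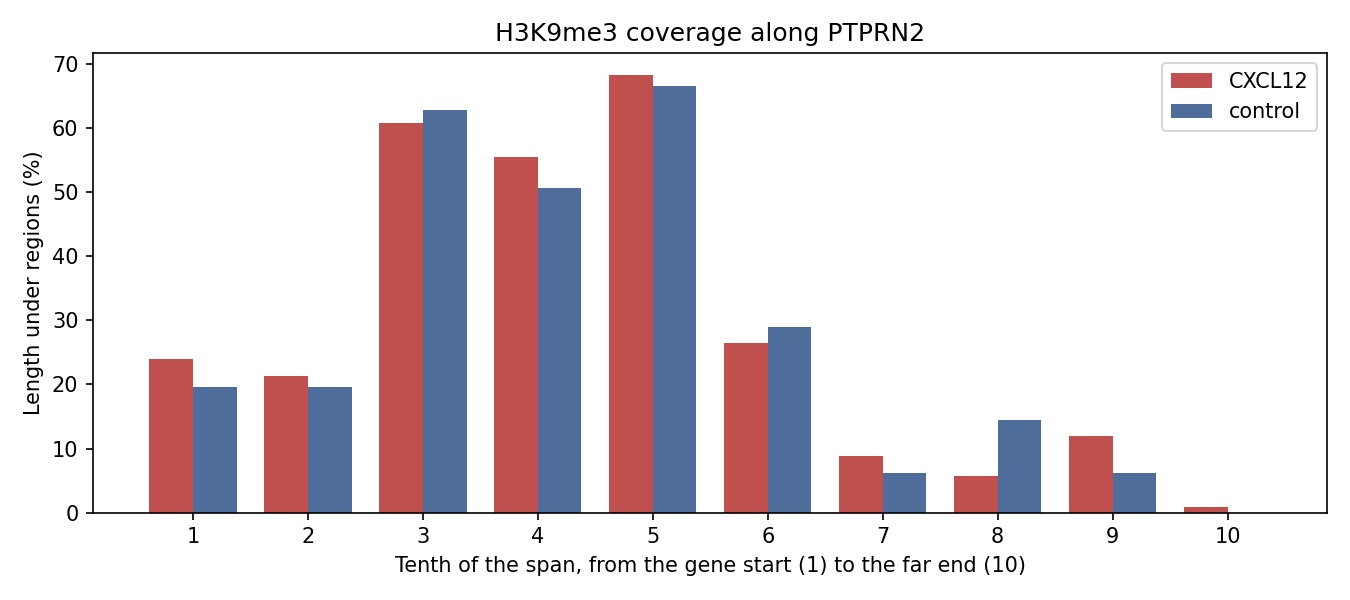
Percent of each of 10 equal parts of the PTPRN2 span that lay under H3K9me3 regions (y axis), from the gene start to its far end (x axis), in CXCL12 and control. Parts 3 to 5 stand at or above 50.7% in both libraries, and every other part stays at or below 28.9%.

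Overlapping regions (1 bp or more) of the libraries were joined into loci, which gave 35 loci at PTPRN2. Going from the gene start inwards, the first locus lay upstream, at chromosome 7, 158381600 to 158389799, and was marked as holding a promoter. In CXCL12 its region had a deposited distance to the start of −6286 bp, measured 5600 bp and had a mean signal of 8.98 with a highest bin of 23. In control the distance was −7374 bp, and the region measured 8200 bp and had a mean of 6.64 with a highest bin of 24. The shorter CXCL12 region thus had the higher mean and a nearly equal highest bin, with a log2 ratio of CXCL12 to control of 0.44 for the mean and −0.06 for the highest bin. The gene start itself lay between this locus and the next one, whose near edge was 3.08 kb inside the gene. There the mean was 4.93 over 7200 bp in CXCL12 and 5.83 over 5000 bp in control, among the weaker values of the gene, with peaks 7922 bp from the start in CXCL12 and 7810 bp in control and highest bins of 16 in CXCL12 and 18 in control. Neither locus held a CpG island, and below a locus held none unless one is mentioned.

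The stretch upstream of PTPRN2 up to NCAPG2, a gene for a condensin subunit, also holds the microRNA gene MIR5707 in RefSeq's GRCh38.p14 table. Because that build differs from hg19, its place relative to the upstream locus was not determined. No region was annotated to MIR5707 in either library. Its mature sequence from RefSeq is shown as the microRNA next to the gene start, 5′ to 3′, with the seed (bases 2 to 8) in capitals:
hsa-miR-5707: aCGUUUGAaugcuguacaaggc

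The deposited annotation assigned 2 loci to MIR595, a microRNA gene inside PTPRN2. The deposited distances run to the highest bin, and whether either locus covers MIR595 was not determined. The one annotated as upstream of MIR595 was marked as a promoter, at 158323400 to 158331599. It peaked 53298 bp from the PTPRN2 start in CXCL12 and 53378 bp in control. It had a mean of 9.82 over 8000 bp in CXCL12 and 10.7 over 7400 bp in control, with highest bins of 55 in CXCL12 and 46 in control. Mean and highest bin therefore differed in opposite directions. The one annotated as downstream of MIR595 was weaker, at 158312600 to 158316199. Its mean was 5.34 over 3600 bp in CXCL12 and 6.49 over 2200 bp in control, with highest bins of 18 in CXCL12 and 16 in control. Its peaks lay 65154 bp from the gene start in CXCL12 and 65303 bp in control.

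Between 79.1 and 210.5 kb from the start, 5 loci were listed, of which 2 were called in CXCL12 only. The first of these 2, at 158298400 to 158301399, peaked 81842 bp from the start and held a CpG island, with a mean of 7.82 over 3000 bp and a highest bin of 20. Next came a locus with the same edges in both libraries, at 158245000 to 158253599. It held 2 CpG islands and had a mean of 11.8 in CXCL12 and 11.6 in control over 8600 bp, with highest bins of 59 in CXCL12 and 63 in control, 131954 bp from the start in CXCL12 and 131842 bp in control. These values were almost equal in the libraries and well above the genome's median region. The other CXCL12-only locus, 147314 bp from the start, had a mean of 5.85 over 2400 bp and 16 in its highest bin. A locus with 1 CpG island followed at 187026 bp in CXCL12 and 187874 bp in control, with means of 7.43 over 11200 bp in CXCL12 and 7.03 over 10800 bp in control and a highest bin of 20 in each. The last, with no CpG island, peaked at 206818 bp in CXCL12 and 206770 bp in control and had means of 9.71 over 6000 bp in CXCL12 and 8.39 over 7000 bp in control, with highest bins of 31 in CXCL12 and 25 in control.

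A dense stretch, 241 to 345 kb from the start, held 6 loci, all of them found in both libraries. At its outer edge a locus peaked 244962 bp from the start in CXCL12 and 245122 bp in control, with means of 9.17 over 5400 bp in CXCL12 and 9.21 over 5600 bp in control. A short one beside it, at 250498 bp in CXCL12 and 250146 bp in control, had means of 6.24 over 1600 bp in CXCL12 and 5.19 over 2200 bp in control. Their highest bins were 20 and 17 in CXCL12 and 25 and 18 in control, and neither held a CpG island. A domain with 3 CpG islands followed at 158096600 to 158127399. CXCL12 had it as 1 region of 30.8 kb that peaked at 274818 bp, with a mean of 13.3 and 74 in its highest bin, the top value of any PTPRN2 region. Control had it as 2 regions, of 25.2 kb with a mean of 13.6 and 53 in its highest bin at 273186 bp, and of 3000 bp with 3.74 as its mean and 10 in its highest bin, at 281458 bp. Over all bins of the domain the means were 13.3 in CXCL12 and 12.6 in control. The adjoining domain, at 158067000 to 158095399 and without CpG islands, was likewise 1 region in CXCL12 and 2 in control. The CXCL12 region measured 23.6 kb with a mean of 9.43 and peaked at 297426 bp, where the highest bin was 32. In control the pair measured 14.6 and 12.8 kb, with means of 7.45 and 9.15, highest bins of 30 and 28, and peaks at 297794 and 304386 bp. In both domains CXCL12 thus had 1 unbroken call where control had 2. The breaks in control were short, from 158100399 to 158101400 and from 158079999 to 158080800. Each library had 1 region at 24 of the 27 shared PTPRN2 loci, and at 19143 of the 21541 shared loci of the genome.

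The remaining loci of that stretch held 3 and 1 CpG islands. At 158047400 to 158066199, with 3 islands, the mean was 6.42 over 16.4 kb in CXCL12 and 5.58 over 18.8 kb in control. Its highest bin was 31 in CXCL12 and 16 in control, a log2 ratio of 0.95, the farthest from 0 by the highest bin among the shared loci of the gene. The peaks lay close together even so, at 324546 bp in CXCL12 and 324642 bp in control. At 338674 bp in CXCL12 and 338594 bp in control the mean was 8.13 over 7200 bp in CXCL12 and 8.24 over 6000 bp in control, with highest bins of 26 in CXCL12 and 20 in control.

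A weak group of 3 loci separated this stretch from the main domains. Its shared loci had means of 4.22 over 4800 bp in CXCL12 and 6.25 over 2600 bp in control, at 358786 bp in CXCL12 and 357666 bp in control, and 4.22 over 5600 bp in CXCL12 and 3.13 over 5200 bp in control, at 370205 bp in CXCL12 and 372002 bp in control. Their highest bins were 12 and 9 in CXCL12 and 12 and 7 in control. Between them lay a CXCL12-only region at 366151 bp, with a mean of 2.87 over 3400 bp and a highest bin of 8, the lowest mean of any PTPRN2 region. It was 1.2 kb from the nearest control region.

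The main domains lay 381 to 533 kb from the start. At 157979600 to 157999399 CXCL12 had 1 region of 19.2 kb with 2 CpG islands, a mean of 13.3 and 65 in its highest bin, peaking at 394690 bp. Control had 2, of 15.8 kb with a mean of 14.2, a highest bin of 62 and a peak at 394658 bp, and of 3200 bp with a mean of 6.20, a highest bin of 14 and a peak at 383554 bp, each with 1 CpG island. The main peaks were 32 bp apart. The longest region of the gene, at 157893000 to 157953199, measured 60.2 kb in CXCL12 and 58.6 kb in control and held 3 CpG islands. Its mean was 13.7 in CXCL12 and 13.8 in control, its highest bin 53 in CXCL12 and 47 in control, and its peak 473954 bp from the start in CXCL12 and 473970 bp in control. In length, mean and peak position this domain was thus nearly the same in both libraries.

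Next to it lay 4 further loci, none with a CpG island. A CXCL12-only region of 1600 bp at 498050 bp averaged 3.94 per bin with 11 in its highest, and lay 1.80 kb from the nearest control region. The highest mean signal of the gene came from a short locus with the same edges in both libraries, at 157878600 to 157880399, with 16.1 in CXCL12 and 15.7 in control over 1800 bp, peaking at 501794 bp in CXCL12 and 501762 bp in control. The adjoining locus had means of 9.83 over 2800 bp in CXCL12 and 8.75 over 4200 bp in control, at 504130 bp in CXCL12 and 504066 bp in control. The highest bins of these 2 shared loci were 36 and 30 in CXCL12 and 31 and 35 in control, so the order of the libraries differed between them. Another domain of at least 10 kb, at 157847400 to 157863199, also had the same edges in both libraries. Over 15.8 kb its mean was 13.8 in CXCL12 and 12.8 in control, with highest bins of 62 in CXCL12 and 56 in control. Its peaks were 2288 bp apart, the widest distance of any shared PTPRN2 locus, at 527378 bp in CXCL12 and 525090 bp in control.

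From 545 to 646 kb the loci became sparser. A weak locus at 547442 bp in CXCL12 and 547634 bp in control had means of 3.91 over 2800 bp in CXCL12 and 4.70 over 3400 bp in control, with highest bins of 11 in CXCL12 and 9 in control. A CXCL12-only region of 1200 bp at 550322 bp averaged 6.47 per bin with 11 in its highest, and lay 0.800 kb from the control region of that weak locus. On its other side, the locus at 157818600 to 157828399 had the highest log2 ratio of the gene, 0.67. Its mean was 11.4 over 3600 bp in CXCL12 and 7.16 over 9600 bp in control, while its highest bin was 23 in CXCL12 and 26 in control and its peaks were 288 bp apart, at 554114 bp in CXCL12 and 554402 bp in control. The higher mean went with a shorter called region and not with a higher peak. Farther on, a locus had means of 8.97 over 10.8 kb in CXCL12 and 10.2 over 8000 bp in control, at 618226 bp in CXCL12 and 618434 bp in control. The next had means of 9.65 in CXCL12 and 9.42 in control over 6600 bp each, at 642242 bp in CXCL12 and 642946 bp in control. Highest bins at this pair were 29 and 24 in CXCL12 and 36 and 22 in control.

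The farthest part of the gene held 6 loci, 3 of them in a single library. A CXCL12-only region 706738 bp from the start had a mean of 3.54 over 2800 bp and a highest bin of 7, 58.4 kb from the nearest control region. The only locus called in control alone, at 157555400 to 157565999, peaked 824546 bp from the start and held 1 CpG island. It measured 10.6 kb and averaged 5.44 per bin with 16 in its highest, and the nearest CXCL12 region was 33.0 kb away. It was longer than each of the 7 CXCL12-only loci, which measured 1200 to 3600 bp. The CXCL12-only region past the far end, at 157323200 to 157326799, was placed downstream of PTPRN2 and of LOC100506557. It had a mean of 5.21 over 3600 bp, 14 in its highest bin, and lay 106.6 kb from the nearest control region.

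The shared loci of this far part had means of 6.09 over 6000 bp in CXCL12 and 6.65 over 4800 bp in control at 779698 bp in CXCL12 and 778082 bp in control, and of 6.78 over 7800 bp in CXCL12 and 6.59 over 6200 bp in control at 946018 bp in CXCL12 and 944314 bp in control. Highest bins were 15 in CXCL12 and 23 in control at the first of these, and 24 in CXCL12 and 15 in control at the second. The remaining one, at 157485400 to 157490799, had the lowest log2 ratio of the gene, −0.76. It measured 5400 bp with a mean of 3.98, a highest bin of 9 and a CpG island in CXCL12, at 893826 bp, against 400 bp with a mean of 6.75, a highest bin of 12 and no CpG island in control, at 892002 bp. As at the locus with the highest ratio, the longer region had the lower mean.

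Set side by side, the libraries shared most PTPRN2 loci and differed little in signal. Of the 35 loci, 27 were shared, 7 were called in CXCL12 only and 1 in control only. Over all 29404 loci of the genome, 73.3% were shared, 14.6% were called in CXCL12 only and 12.2% in control only, where PTPRN2 had 77.1% (exact 95% interval 59.9 to 89.6%), 20.0% and 2.86%. Of these single-library loci, 4 of the 7 in CXCL12 and the 1 in control had a mean signal at or above the median region of their library, against 692 of 4283 in CXCL12 and 748 of 3580 in control over the genome. The regions covered 306.4 kb in CXCL12 and 294.2 kb in control, a ratio of 1.04, against 1.07 over the genome. Both libraries called 261.6 kb, which is 85.4% of the CXCL12 length and 88.9% of the control length. Over the genome the shares were 77.6% of the CXCL12 length and 82.9% of the control length.

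The median log2 ratio of mean signal over the 27 shared PTPRN2 loci was 0.03 (order-statistic 95% interval −0.12 to 0.17), and over all 21541 shared loci it was 0.04. The ratio was above 0 at 16 loci (59.3%, against 57.0% of all shared loci) and below 0 at 11. At least 2-fold higher in CXCL12 were 0 of the 27 loci, where the genome had 0.116%, and at least 2-fold lower were 0 of 27, where it had 0.176%. By the highest bin the counts were also 0 higher and 0 lower, where the genome had 0.696% and 0.279%. At a 1.5-fold rule 1 locus was higher and 1 lower, the loci with log2 ratios of 0.67 and −0.76 described above, where the genome had 2.28% and 1.92%. With 27 loci a share as small as these genome values would not be expected to show, so the counts set PTPRN2 apart in neither direction.

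**Figure D3:**
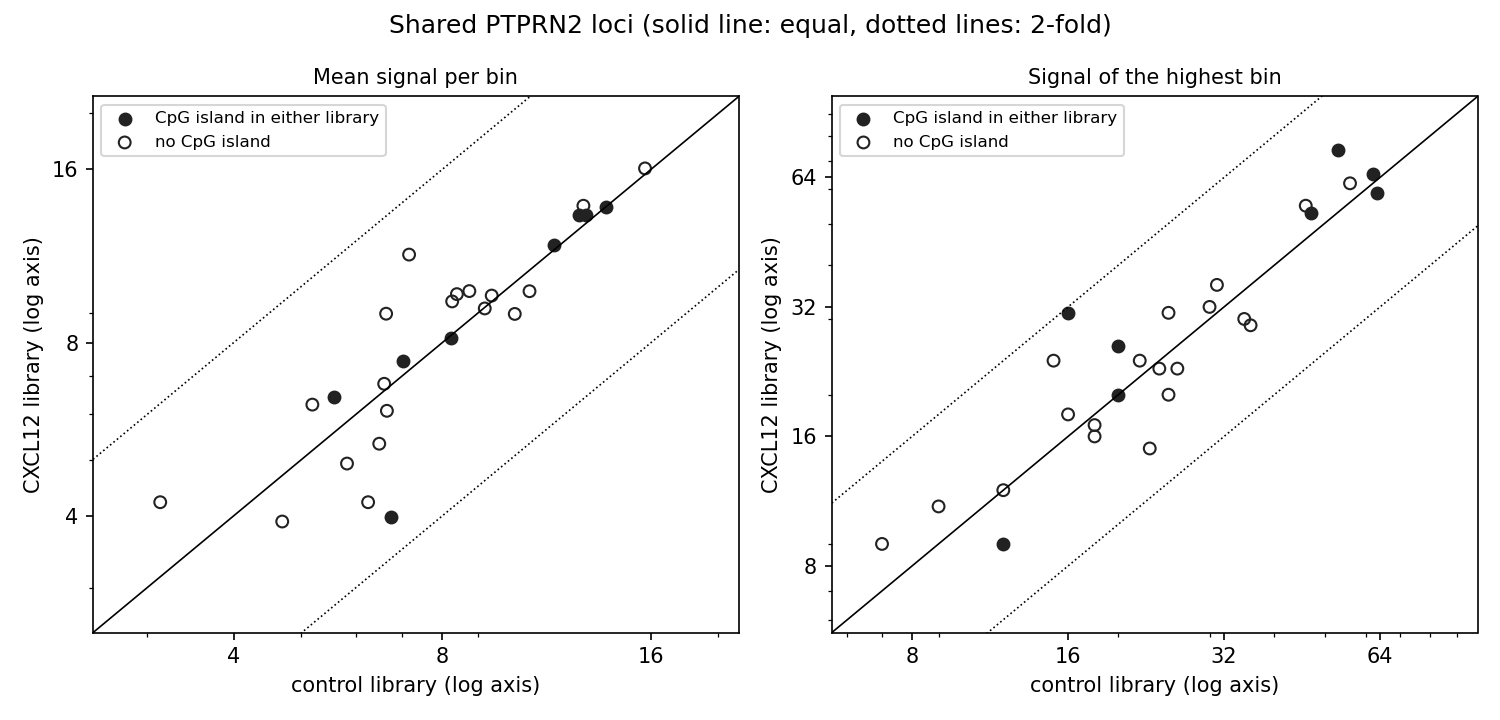
Mean signal per bin (left) and signal of the highest bin (right) of the 27 shared PTPRN2 loci, in control (x axis, log scale) and CXCL12 (y axis, log scale); filled points hold a CpG island. All points lie between the dotted 2-fold lines, and by the mean the points farthest from the solid line of equality are at 11.4 in CXCL12 against 7.16 in control and at 3.98 in CXCL12 against 6.75 in control.

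Peak positions were mostly close in the libraries as well. The highest bins of the libraries lay within 200 bp of each other at 13 of 27 shared PTPRN2 loci (48.1%), against 42.8% of all shared loci, and within 1000 bp at 19 (70.4%), against 77.4% of all shared loci. The median distance was 208 bp at PTPRN2 and 288 bp overall. Of the 27 loci, 9 had the same start in both libraries (33.3%, against 17.4% of all shared loci), 8 the same end (29.6%, against 17.4%) and 3 both edges (11.1%, against 3.35%). Regions were longer in CXCL12 at 14 loci (51.9%, against 55.0% of all shared loci), shorter at 9 (33.3%, against 37.4%) and equal at 4.

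PTPRN2 regions held CpG islands more often than the regions of the whole genome did, as a description without a test. An island was counted in 9 of 34 regions in CXCL12 (26.5%, exact 95% interval 12.9 to 44.4%) and 9 of 31 in control (29.0%, 14.2 to 48.0%). Over the genome the shares were 4.12% in CXCL12 (3.88 to 4.36%) and 4.34% in control (4.10 to 4.59%), and over chromosome 7 they were 5.28% in CXCL12 and 5.51% in control. Regions inside any gene had 5.61% in CXCL12 and 6.10% in control. Per 100 kb of called length PTPRN2 had 5.55 islands in CXCL12 and 5.44 in control, against 0.984 in CXCL12 and 1.09 in control over the genome. Long regions hold more islands, and the difference was present in both length classes. At 10 kb or more, 5 of 8 PTPRN2 regions in CXCL12 (24.5 to 91.5%) and 6 of 9 in control (29.9 to 92.5%) held one. Over the genome it was 15.0% in CXCL12 and 16.7% in control. Under 10 kb it was 4 of 26 in CXCL12 (4.36 to 34.9%) and 3 of 22 in control (2.91 to 34.9%), against 2.93% in CXCL12 and 3.17% in control. The control interval under 10 kb thus holds the genome's share. Regions of 1 gene are neighbours and not independent, and how many islands the gene holds outside its regions is not listed, so an enrichment of H3K9me3 at the islands of PTPRN2 was not tested.

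Regions with an island had the higher median length within the gene, with overlap. Their median length was 11.2 kb in CXCL12 and 10.8 kb in control, against 4800 bp in CXCL12 and 5400 bp in control for the regions without an island. Although fewer than the others, they accounted for 52.9% of the length covered in CXCL12 and 53.6% in control. The median of their mean signal was also higher, 8.13 in CXCL12 and 8.24 in control, against 6.47 in CXCL12 and 6.96 in control. Their mean signals overlapped those of the others widely, with a range of 3.98 to 13.7 in CXCL12 and 5.44 to 14.2 in control, against 2.87 to 16.1 in CXCL12 and 3.13 to 15.7 in control.

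PTPRN2 regions also had more signal than most. The median of their mean signal was 7.62 in CXCL12 (quartiles 5.24 and 9.79) and 7.16 in control (6.23 and 9.80), against 5.10 in CXCL12 and 5.06 in control over the genome. At or above the genome's median were 26 of 34 regions in CXCL12 and 28 of 31 in control. Regions of at least 10 kb made up 23.5% in CXCL12 and 29.0% in control, against 9.85% in CXCL12 and 8.62% in control over the genome.

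By length, regions covered more of the gene than of its surroundings. Between its outermost regions 28.7% of the DNA was called in CXCL12 and 27.6% in control. The 2 Mb on the centromere side had 8.59% in CXCL12 and 10.3% in control, and the 734.6 kb between the gene and the last region of the chromosome had 19.8% in CXCL12 and 21.1% in control. Counted as regions per 100 kb, PTPRN2 had 3.19 in CXCL12 and 2.91 in control. The chromosome end side had 2.72 in CXCL12 and 3.27 in control, so in control it was above the gene. On the centromere side there were 1.3 in CXCL12 and 1.55 in control. The span of the gene is set by its own regions, so its share is a description. An empty stretch of 409.0 kb lay beyond the far end of PTPRN2, between it and LOC100506432, and another of 109.0 kb lay between the upstream locus and NCAPG2. In RefSeq's table DNAJB6, a heat shock co-chaperone gene, and UBE3C, a ubiquitin ligase gene, precede PTPRN2 on that far side, and neither carried a region in either library.

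Other rows within 2 Mb numbered 46 in CXCL12 and 55 in control, with a median of the mean signal of 6.20 in CXCL12 (quartiles 5.06 and 7.46) and 5.92 in control (4.42 and 7.17). These quartile ranges overlapped those of PTPRN2. A CpG island was counted in 13% of them in CXCL12 and 12.7% in control. On the chromosome end side it was 20% in CXCL12 (5.73 to 43.7%) and 16.7% in control (4.74 to 37.4%). The centromere side had 7.69% in CXCL12 (0.946 to 25.1%) and 9.68% in control (2.04 to 25.8%). The intervals of both sides overlap those of PTPRN2. Of their 49 loci, 43 were shared (87.8%, against 73.3% of all loci of the genome). In CXCL12 only there were 0, against 14.6% of all loci, and in control only 6 (12.2%, against 12.2%). Their covered length in CXCL12 was 0.880 of that in control, against 1.07 over the genome. The 6 control-only loci lay on the centromere side, with 3 in the annotated gene tcag7.1213, 1 in LMBR1, whose introns hold the limb enhancer of SHH, and 2 without a gene. Their means ran from 3.30 to 6.28.

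Among the neighbouring genes, the locus upstream of NCAPG2 had the highest log2 ratio, 0.80, with a mean of 14.6 over 2200 bp in CXCL12 and 8.38 over 3600 bp in control. ESYT2, which tethers the endoplasmic reticulum to the plasma membrane, had a locus with 5.72 in CXCL12 and 4.99 in control. VIPR2, a receptor for vasoactive intestinal peptide, had one with 5.26 in CXCL12 and 4.98 in control, and WDR60, a dynein chain of cilia, had 4 loci with medians over its regions of 7.53 in CXCL12 and 6.82 in control. The strongest locus of the surroundings lay without a gene at 158770200 to 158782599, with a mean of 22.1 in CXCL12 and 19.0 in control, above any PTPRN2 locus. LMBR1 had 5 loci with medians over its regions of 5.51 in CXCL12 and 6.07 in control. No region was annotated to SHH or MNX1, developmental regulators of the same band.

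**Figure D4:**
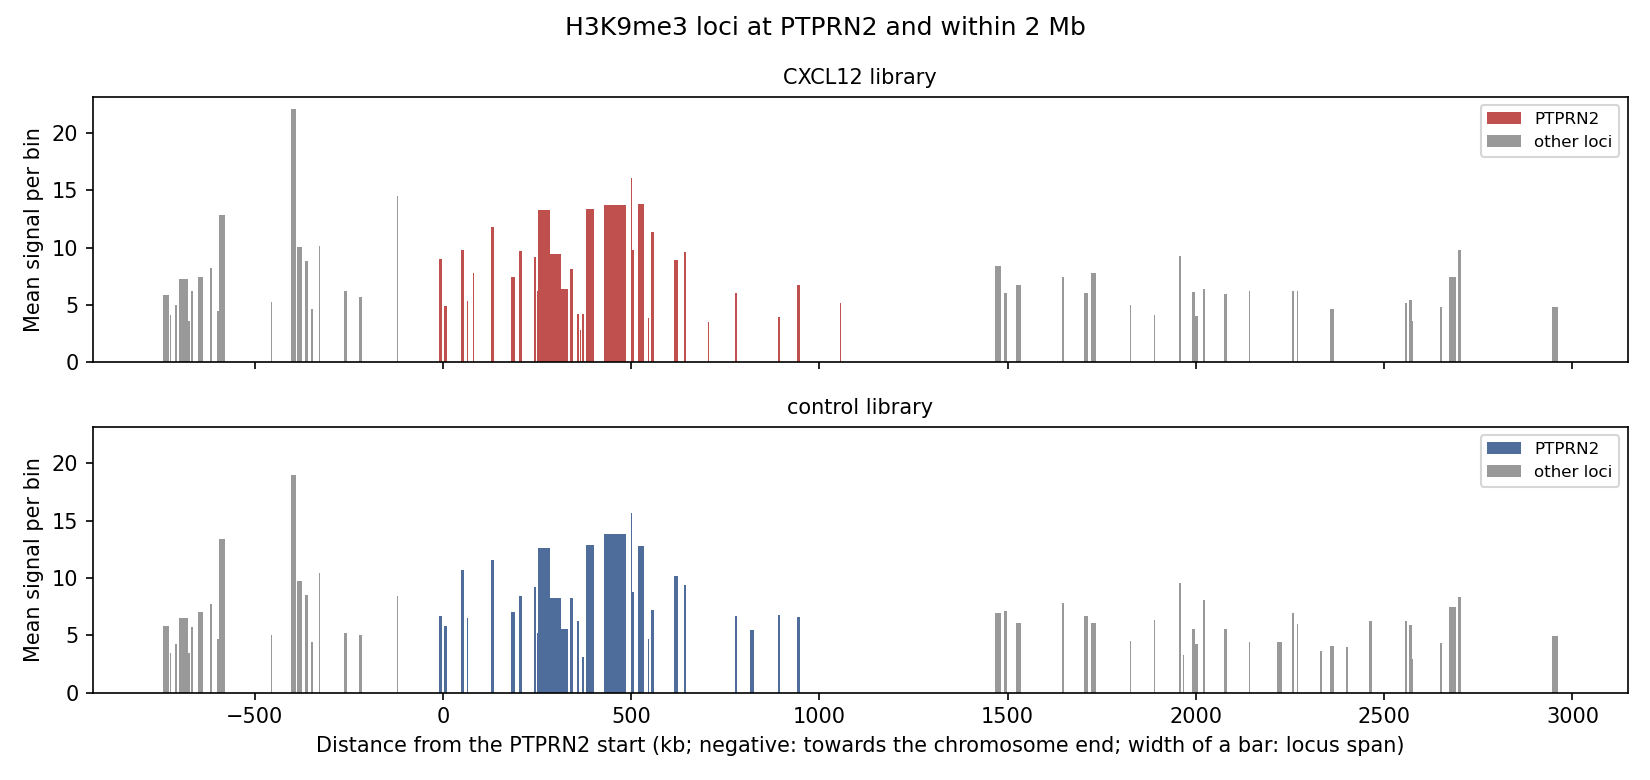
Mean signal per bin (y axis) of PTPRN2 loci (coloured) and other loci within 2 Mb (grey) by distance from the PTPRN2 start in kb (x axis), CXCL12 above and control below; a bar is as wide as its locus. The empty stretch of 409.0 kb lies to the right of the PTPRN2 loci, and the tallest grey bar, 22.1 in CXCL12 and 19.0 in control, lies on the side of the chromosome end.

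The 5 genes nearest to PTPRN2 in their number of regions over both libraries, leaving out chromosome 8, were GPHN with 65, ISPD with 63, MACROD2 with 59, SNRPN with 73 and TMEM132D with 79. GPHN encodes gephyrin, the scaffold of inhibitory synapses, and SNRPN is an imprinted gene over small nucleolar RNA repeats. Their regions held fewer CpG islands than those of PTPRN2. GPHN had 0 in 33 regions in CXCL12 and 0 in 32 in control, with exact 95% intervals that reach 10.6% in CXCL12 and 10.9% in control. TMEM132D, with the highest share of the 5, had 8.33% in CXCL12 (1.75 to 22.5%) and 9.30% in control (2.59 to 22.1%), and the intervals overlap those of PTPRN2. The median of the mean signal in these genes ran from 4.45 to 5.74 in CXCL12 and from 4.38 to 5.71 in control, below 7.62 in CXCL12 and 7.16 in control at PTPRN2. By covered length SNRPN was ahead of PTPRN2, with 548.0 kb in CXCL12 and 483.2 kb in control. The shares of loci that were shared between the libraries ran from 70.6% at MACROD2 to 82.4% at GPHN, with intervals that overlap the 77.1% of PTPRN2. Their median log2 ratios ran from −0.04 at GPHN to 0.16 at ISPD.

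**Figure D5:**
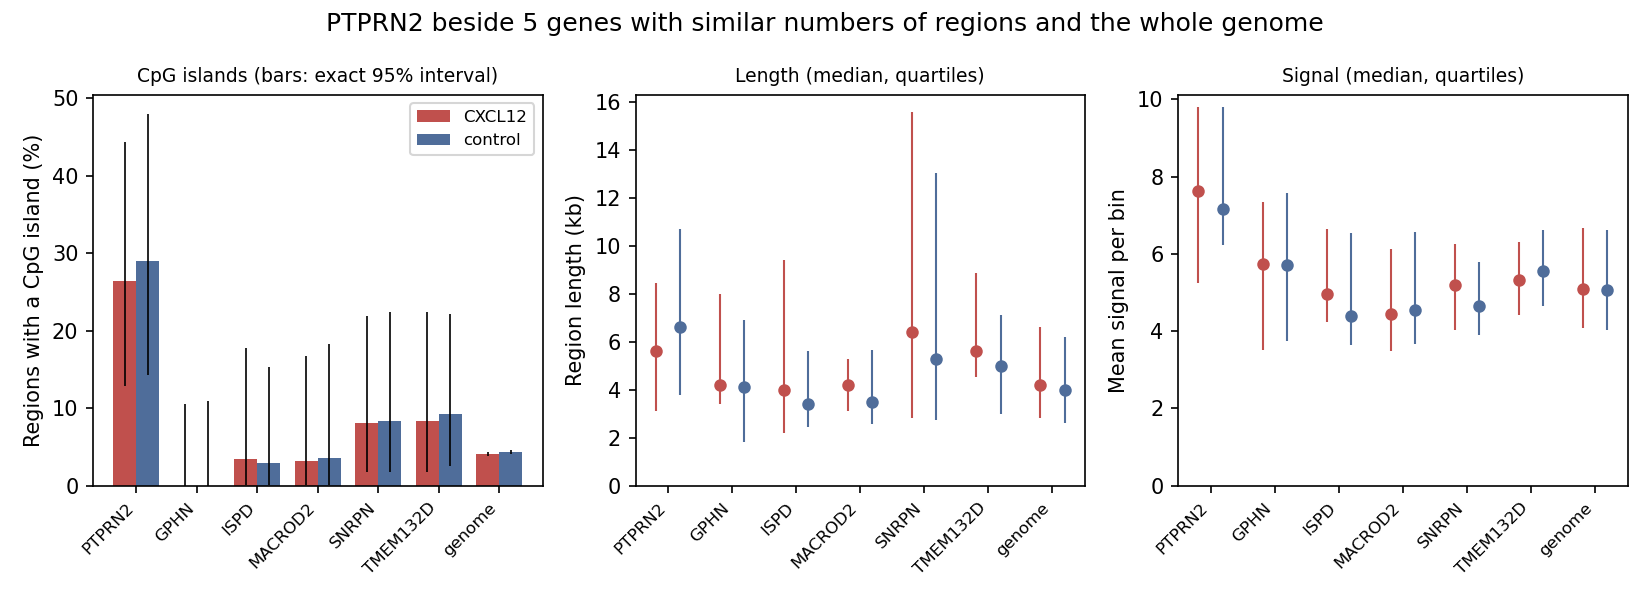
PTPRN2, the 5 genes with the most similar number of regions, and all regions of the genome, in CXCL12 (left of each pair) and control: percent of regions with a CpG island with exact 95% intervals, region length in kb and mean signal per bin (medians with quartiles). PTPRN2 has the highest point in the left and right panels in both libraries.

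Within its own protein family PTPRN2 had the most regions, which follows from its choice. Of 19 other receptor-type tyrosine phosphatase genes, 12 (63.2%) carried a region in either library, 11 in CXCL12 and 11 in control. Among 20037 protein-coding genes of RefSeq's GRCh38.p14 table, matched by symbol, the share was 30.2% in either library, 28.1% in CXCL12 and 28.1% in control, with no account taken of gene length. Next in number came PTPRK with 13 in CXCL12 and 7 in control, PTPRT with 5 in each, and PTPRM with 4 in CXCL12 and 3 in control, all cell adhesion receptors. PTPRK covered 37.4 kb in CXCL12 and 18.6 kb in control. PTPRN, the closest relative of PTPRN2 and its partner in secretory vesicles, carried none in either library. The family had 42 loci, of which 23 were shared, 14 were called in CXCL12 only and 5 in control only. Over all loci of the genome 73.3% were shared, 14.6% were called in CXCL12 only and 12.2% in control only. Over the 23 shared loci the median log2 ratio was 0.002 (−0.11 to 0.15). At least 2-fold apart were 0 loci in either direction, where the genome had 0.116% higher and 0.176% lower in CXCL12.

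Of 24 other genes of dense-core vesicles and secretion, 9 (37.5%) had a region in either library, 7 in CXCL12 and 9 in control, which is near the 30.2% of all protein-coding genes. Gene length was not taken into account here either. RIMS2, a presynaptic active zone protein, had 7 in each library, PCSK2, a prohormone convertase, had 2 in each, and PAM, the peptide-amidating enzyme, had 2 in each. CPE, carboxypeptidase E, had 1 in each, with a mean of 9.79 in CXCL12 and 8.17 in control. The median log2 ratio over their 15 shared loci was −0.09 (−0.32 to 0.26), against 0.04 over all shared loci, and 0 loci were 2-fold apart. Their other 2 loci were called in control only, as were 12.2% of all loci of the genome.

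A list of 16 very long genes, among them PTPRT and several near chromosome ends, was set beside PTPRN2. Of these, 15 (93.8%) carried a region in each library, from 1 in each for ARHGEF10 upwards, and RBFOX1 had none. The share over all protein-coding genes was 28.1% in each library, but the list was chosen for gene length and that share was not matched for it. In the list TMEM132D, MACROD2, SDK1 and DPP6 had the most. SDK1, a synaptic adhesion gene on chromosome 7, had 25 regions over 341.6 kb in CXCL12 and 23 over 355.0 kb in control, with a median signal of 5.37 in CXCL12 and 5.64 in control. DPP6, a potassium channel subunit gene also on chromosome 7, had 22 in each, with 5.75 in CXCL12 and 5.02 in control. MAD1L1, a spindle checkpoint gene of chromosome 7, had only 6 in CXCL12 and 7 in control. Its median signal was higher than that of PTPRN2, 13 in CXCL12 and 10.5 in control. CDH4 was also above PTPRN2 in both libraries, with 7.81 in CXCL12 and 9.26 in control. DLGAP2 was above it in CXCL12 only, with 8.42. PRDM16 and TCERG1L were above it in control only, with 7.92 and 7.76. The other members with regions were below PTPRN2 in both libraries. The list had 197 loci, of which 148 were shared, 27 were called in CXCL12 only and 22 in control only. The shares over all loci of the genome were 73.3%, 14.6% and 12.2%. Over the 148 shared loci the median log2 ratio was 0.05 (0.01 to 0.09).

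Of 18 genes listed for T cell identity, 3 (16.7%, exact 95% interval 3.58 to 41.4%) had a region. The interval holds the 30.2% of all protein-coding genes, with no account taken of gene length. The 3 genes were CD2 with 2 regions in each library, LAT with 1 in each and PTPRC, the gene of CD45, with 1 in CXCL12 and 0 in control. All 3 had their regions beside and not inside the gene. CD3D, CD3E, CD3G, LCK and CXCR4, the receptor of CXCL12, had none. The 4 loci of this list included 3 shared ones with log2 ratios from −0.10 to 0.38.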

How the data were processed

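The data are H3K9me3 ChIP-seq of Jurkat cells. The authors deposited 1 list of regions per immunoprecipitated library, and the signal values in it are, per the file headers, the average (Avg Val) and maximum (Peak Val) over its bins. Per the submitters' processing notes, hg19 was the build, and BWA 0.7.12 and SICER 1.1 were used. The sources used here do not give their settings, any scaling of the libraries or any use of the input. In 100% of regions the mean signal times the bin number came out whole (tolerance 0.001%). Depth is unknown. Coordinates are printed as deposited, with their numbering base unknown.

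Libraries were assigned by their titles. Regions sharing at least 1 bp between libraries were chained into loci (Python 3.11.15, pandas 2.3.3, SciPy 1.17.1), the chaining was tested on simulated regions, and log2 ratios of CXCL12 to control were taken over all bins without a pseudocount. Across the genome ratios exist for shared loci only. Shares have exact (Clopper-Pearson) and medians order-statistic 95% intervals, which describe regions of these libraries and not cultures. A mean over called bins depends on the called length. Of 7664 annotated symbols, 6030 matched a protein-coding gene of the RefSeq table. The gene and the lists were chosen with earlier results of these data known. Named genes were neighbours within 2 Mb, up to 4 members with the most regions per list, the 5 genes nearest in number of regions, and further list members named after their values were seen.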

Additional observations from a re-analysis of the deposited data

How the results depend on the processing

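With 1 library per group no library could be left out, and no paired analysis was possible because each group has a single library. Of 34 recomputed values, 23 stayed close to those reported and 11 moved. The 11 include the median signals by the highest bin, which were counted as moved whatever their value because the scale differs. With regions at or above the median signal, CXCL12-only loci numbered 4 (7 with all regions) and control-only loci 4 (1 with all regions). Of these 4 control-only loci, 3 are called in both libraries and only their CXCL12 region fell below the median, so that the mean signal itself sets this count. Under that filter the covered length was 272.8 kb in CXCL12 and 282.6 kb in control, the opposite order to that of all regions. The 1.5-fold rule gave 1 locus higher and 1 lower in CXCL12, against 0 and 0 at 2-fold. A window of 1 Mb gave 9.20% covered on the centromere side in control. Weighted by length, regions with a CpG island came to 52.9% in CXCL12 and 53.6% in control. By the highest bin, which is another scale, the median was 21.5 in CXCL12 and 23 in control at PTPRN2, and 17.5 in CXCL12 and 17 in control among its neighbours, so that the order of the libraries at PTPRN2 turned round. The median log2 ratio of the shared loci stayed within its interval under all 5 alternatives, from −0.01 after centring on all shared loci to 0.09 by the highest bin. The unknown depth and the unused input limit what a level can say.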

Other observations

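Longer PTPRN2 regions tended to have higher mean signals, with a Spearman rho across regions of 0.48 in CXCL12 (n = 34) and 0.44 in control (n = 31), against 0.35 in CXCL12 and 0.33 in control over all regions. Across the 27 shared PTPRN2 loci the log2 ratio of mean signal was lower where the log2 ratio of length was higher (rho −0.72, and −0.62 over all 21541 shared loci). The points of each correlation share a library, and a mean over called bins is tied to the called length, so these are descriptions. The levels of the libraries ran together across the shared PTPRN2 loci (rho 0.90 for the mean signal and 0.86 for the highest bin).

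The median length of the 34 empty stretches between PTPRN2 loci was 10.7 kb. Of these, 12 were shorter than 5 kb, and the longest, of 105.2 kb, separated the locus past the far end from the rest.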
